A study of Mus musculus with 50 samples.

Results

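Gene expression was compared between 10 mammary gland tumors of mice that had been injected with glargine and 10 tumors of mice that had been injected with insulin, out of 50 tumors in the series. The 20 tumors are those that carry either treatment in their labels. All mice were females of the p53R270H/+WAPCre model and were 8 weeks old when injections started. They carry 1 mutant p53 allele (R270H), and Cre recombinase in this model is driven by the promoter of Wap, a milk protein gene, so that recombination takes place in mammary epithelium. Subcutaneous injections of insulin or glargine were repeated every 2 days until a tumor had grown to 1 cm3, and tissue was taken 24 h after the last of them. The 10 vehicle tumors, titled untreated in the labels, are given as background, and the X10 and IGF1 tumors only entered the estimate of the spread. In each group the authors had selected EMT-like tumors (epithelial to mesenchymal transition) with a latency time near the group median, so the tumors are not a random draw of what arose. Doses are not given in the sources used here.

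Insulin binds the insulin receptor with high affinity and the IGF1 receptor with low affinity. Both receptors signal through IRS and SHC adaptors to the PI3K-AKT-mTOR and RAS-ERK pathways. Glargine is a long-acting insulin in which glycine replaces the asparagine at the end of the A chain and arginines are added to the end of the B chain. In blood most of it is trimmed to forms that lack the arginines. In the mammary gland, insulin acts beside prolactin and glucocorticoid in lactogenesis, and prolactin switches on milk protein genes through its receptor and the transcription factor STAT5.

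Library size, recovered from the deposited RPKM values (read counts scaled to library size and to the length of the gene), was between 26.6 and 46.6 M reads in the glargine group and between 34.1 and 51.9 M reads in the insulin group. The means differed by -0.43 M reads (permutation test, two-sided, p = 0.867). The mesenchymal gene Vim was at 2267 RPKM or more in all 20 tumors, while the epithelial gene Cdh1 was at 35.0 RPKM or less. Tumor insulin 13 stood apart. Its salivary gland genes took 17.3% of the summed RPKM, and the salivary protein gene Bpifa2 alone was at 84726 RPKM. In tumor insulin 14, Bpifa2 was at 428 RPKM, which is 0.505% of the level in insulin 13, while the highest value in the other 48 tumors was 4.96 RPKM. Of 12 salivary genes at 100 RPKM or more in insulin 13, the median level in insulin 14 was 0.55% of that in insulin 13. The exception was Aqp5, a water channel, at 113.4 RPKM in insulin 13 and 81.8 RPKM in insulin 14. Results are therefore also given without insulin 13. Mouse numbers and the order of samples in the series ran from insulin to glargine, so treatment cannot be told apart from that order. If the libraries were made in the same order, treatment cannot be told apart from library order either.

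No gene passed the test between glargine and insulin tumors. With limma on log2(RPKM + 0.5), 0 of 16733 tested genes (0%) had a Benjamini-Hochberg adjusted p-value under 0.05, and the smallest adjusted p-value was 0.990. At an unadjusted p-value under 0.05 there were 663 genes (3.96%), of which 351 were higher (2.1%) and 312 lower (1.86%) in glargine tumors. Limma voom on the recovered reads also gave 0 genes, with 656 at an unadjusted p-value under 0.05. In the same fit 0 genes passed between glargine and vehicle tumors, with 1043 at an unadjusted p-value under 0.05 (6.23%), and 0 between insulin and vehicle tumors, with 1865 (11.1%). For 14562 genes (87%) the 95% interval of the glargine against insulin difference lay within 2-fold either way, and for 10055 genes (60.1%) within 1.5-fold. For the other genes a larger difference is not excluded by its interval. In 0 genes (0%) did all 10 glargine tumors lie on one side of all 10 insulin tumors. Below, p-values of single genes are unadjusted limma p-values, and none passed adjustment. Fold changes are on the log2(RPKM + 0.5) scale, which understates the change of low genes.

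Milk protein genes held the top of the ranking, although none passed adjustment. The casein genes Csn1s1, Csn2 and Csn1s2a had the 3 highest log2 fold changes of all tested genes, and Csn1s1 the smallest p-value. Csn1s1, an alpha casein, ranged from 0.113 to 206 RPKM in glargine tumors with a median of 37.4. In insulin tumors it ranged from 0.035 to 15.0 RPKM with a median of 0.304. Thus 6 of 10 glargine tumors were above every insulin tumor, but glargine 73 lay among the lowest insulin tumors. The log2 fold change was 3.97 ± 1.00 (SE, n = 10 and 10, 95% interval 1.96 to 5.99, p = 0.000245).

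Csn2, the beta casein, had a median of 23.4 RPKM in glargine tumors (0.018 to 316) and of 0.116 RPKM in insulin tumors (0 to 12.9). Its log2 fold change was 3.53 ± 0.95 (SE, p = 0.000516), and 5 of 10 glargine tumors exceeded every insulin tumor. Lalba, the subunit of lactose synthase that is specific to milk, had a median of 3.18 RPKM against 0.396 RPKM, with ranges of 0.314 to 29.8 and 0.232 to 4.07. The groups overlapped, with 4 glargine tumors above every insulin tumor and a log2 fold change of 1.8 ± 0.52 (SE, p = 0.00114). For Csn1s2a (log2 fold change 2.69, p = 0.0018) and Csn3, the kappa casein (2.20, p = 0.0162), 4 and 6 glargine tumors exceeded every insulin tumor. Wap, the gene whose promoter drives Cre in these mice, was low in both groups, with medians of 0.345 and 0.054 RPKM and 23.5 RPKM in glargine 78 (log2 fold change 0.84, p = 0.0339). Without glargine 78 the log2 fold change of Wap was 0.35 (p = 0.171). Glycam1, a mucin-like milk protein, went the other way in its highest value: insulin 8 was at 480.1 RPKM, against at most 36.0 RPKM in a glargine tumor (log2 fold change 0.57, p = 0.549). For Glycam1 the log2 fold change was 1.5 without insulin 8 (p = 0.0601) and 0.11 without glargine 78 (p = 0.904).

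**Figure D1:**
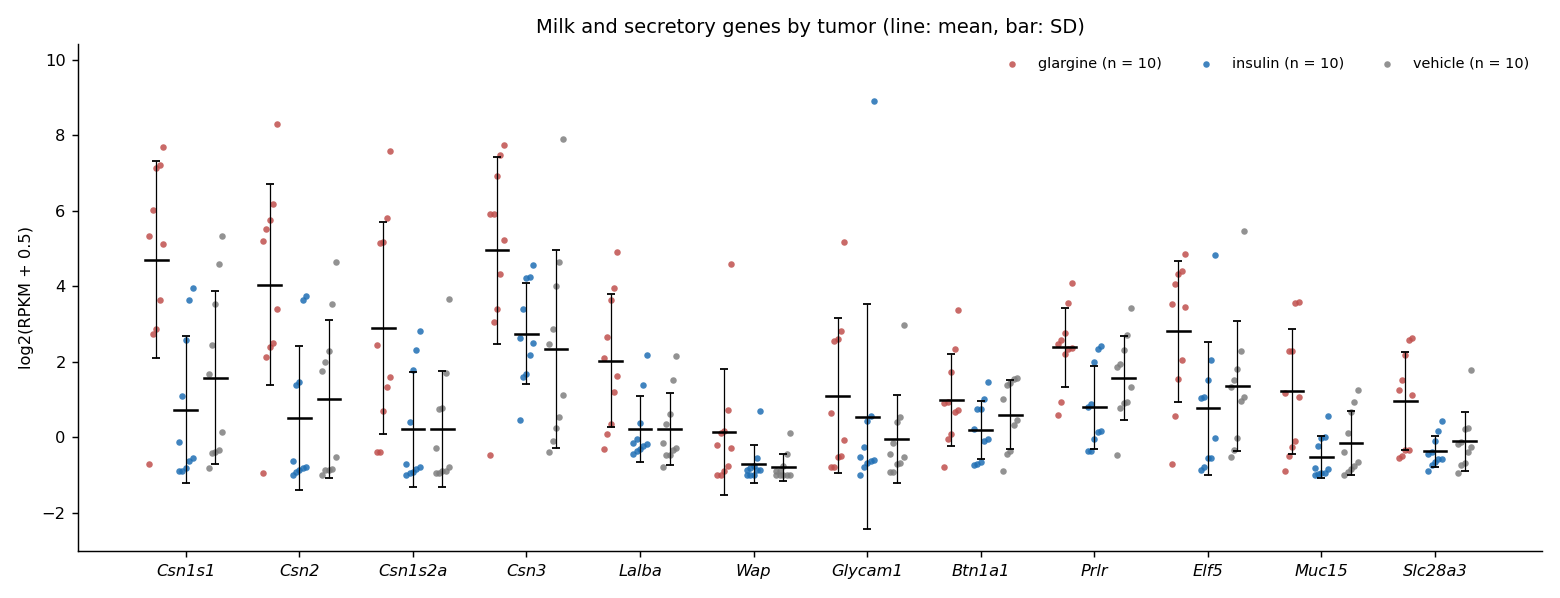
Level of milk protein and secretory epithelium genes in each glargine, insulin and vehicle tumor (10 each), on the log2(RPKM + 0.5) scale; the line is the group mean and the bar the SD. Csn1s1, Csn2 and Lalba are spread over much of the axis in glargine tumors, with 6, 5 and 4 of 10 above every insulin tumor, and the groups overlap for each gene.

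All 8 tested milk genes of the 10 listed had a positive log2 fold change, with a median of 2.00, and 6 had p-values under 0.05 (Wap did not without glargine 78). Over all tested genes 48.3% were positive and the median was -0.01. The excess over insulin tumors was carried by part of the group. Glargine 53 and 78 exceeded every insulin tumor in 7 of the 8 genes, glargine 64 in 6 and glargine 47 in 5, while glargine 62, 67 and 73 did so in 0. The summed level of the 10 listed genes was between 1.29 and 993 RPKM in glargine tumors (median 155) and between 1.5 and 486 RPKM in insulin tumors (median 12.7). The highest insulin sum was that of insulin 8, where Glycam1 alone was at 480.1 RPKM. In that tumor Csn1s1 was at 0.042 RPKM and Csn2 at 0.152 RPKM. In vehicle tumors the sum was between 2.45 and 324 RPKM, with a median of 11.4, and the highest vehicle tumor was above the glargine median. Against vehicle, Csn1s1 had a log2 fold change of 3.13 (p = 0.0031) in glargine tumors and -0.84 (p = 0.40) in insulin tumors; these comparisons use the same tumors as the one above. Without insulin 13 the median of the 8 genes was 1.96. With salivary, muscle and adipocyte scores as covariates it was 1.25, and Csn1s1 was at 2.56.

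The promoters of the 4 milk genes with the smallest p-values are shown, since STAT5 binds a TTCNNNGAA core. Each runs from 250 bases before to 50 bases after the start of transcription, 5′ to 3′ on the strand of the gene, from RefSeq on GRCm38.p6, with the core in capitals. Csn1s1 is at chr5:87665958-87666257 (plus strand), Csn2 at chr5:87699376-87699675 (minus strand), Csn1s2a at chr5:87774200-87774499 (plus strand) and Lalba at chr15:98482634-98482933 (minus strand).
Csn1s1: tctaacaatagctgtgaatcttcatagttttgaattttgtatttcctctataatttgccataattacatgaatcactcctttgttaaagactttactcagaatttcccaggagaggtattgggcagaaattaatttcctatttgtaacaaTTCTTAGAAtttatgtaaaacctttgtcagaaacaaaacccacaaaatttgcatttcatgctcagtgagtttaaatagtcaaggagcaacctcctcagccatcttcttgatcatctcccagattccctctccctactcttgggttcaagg
Csn2: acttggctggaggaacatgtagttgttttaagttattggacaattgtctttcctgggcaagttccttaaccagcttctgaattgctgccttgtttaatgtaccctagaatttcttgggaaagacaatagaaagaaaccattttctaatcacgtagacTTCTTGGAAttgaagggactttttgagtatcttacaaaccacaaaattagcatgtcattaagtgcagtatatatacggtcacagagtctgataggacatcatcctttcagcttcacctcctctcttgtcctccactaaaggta
Csn1s2a: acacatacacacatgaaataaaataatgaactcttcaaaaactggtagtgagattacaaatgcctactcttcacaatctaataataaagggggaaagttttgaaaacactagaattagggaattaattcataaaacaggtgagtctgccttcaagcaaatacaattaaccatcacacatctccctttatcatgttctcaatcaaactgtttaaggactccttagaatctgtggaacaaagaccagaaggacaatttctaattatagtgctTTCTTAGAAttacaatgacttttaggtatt
Lalba: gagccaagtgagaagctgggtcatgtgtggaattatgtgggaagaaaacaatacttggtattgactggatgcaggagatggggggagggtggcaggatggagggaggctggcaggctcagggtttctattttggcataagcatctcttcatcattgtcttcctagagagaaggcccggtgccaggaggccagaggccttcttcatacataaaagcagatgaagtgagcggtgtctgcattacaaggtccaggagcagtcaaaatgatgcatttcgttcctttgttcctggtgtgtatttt
The core reads the same on both strands in its fixed letters. It begins 100 bases before the RefSeq start in Csn1s1, 93 bases before it in Csn2 and 20 bases after it in Csn1s2a. The core letters are not in the Lalba window. In the GENCODE annotation Csn1s2a begins at chr5:87774567, past the whole window. There Csn2 begins at chr5:87699630 and Lalba at chr15:98482721, which also differ from RefSeq. The positions given thus hold for the RefSeq starts only. Of the 7 milk genes with a promoter in the table, 4 hold the core, the fourth being Glycam1, as do 8.30% of all 32851 promoters of this length. A match is a description of the letters and not a measured binding site.

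Prlr, the prolactin receptor, had a median of 4.85 RPKM in glargine tumors (1.01 to 16.4) and of 0.941 RPKM in insulin tumors (0.273 to 4.83). All 10 glargine tumors were above the insulin median and 5 were above every insulin tumor, with a log2 fold change of 1.59 ± 0.45 (SE, p = 0.000889). Elf5, a transcription factor of alveolar cells that prolactin induces, had medians of 10.7 and 1.03 RPKM (log2 fold change 2.03 ± 0.71, p = 0.00645). Its highest insulin value, 27.9 RPKM, was in insulin 13, and without that tumor the log2 fold change was 2.48 (p = 0.0007). Muc15, a mucin of the milk fat globule membrane, was at 0.979 RPKM or less in every insulin tumor and above that in 6 glargine tumors (log2 fold change 1.74, p = 0.000499). Slc28a3, a nucleoside transporter, was likewise above every insulin tumor in 6 glargine tumors (1.33, p = 0.00031).

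Of 22 tested epithelial genes, 21 had a positive log2 fold change, with a median of 0.97 and 2 p-values under 0.05. Without insulin 13 the median was 1.18 and 9 p-values were under 0.05, against 6.35% of all tested genes in that setting. The intervals were wide: 1 of the 22 lay within 2-fold either way. Krt19, a luminal keratin, had medians of 15.2 and 2.39 RPKM (log2 fold change 2.00, p = 0.0301), and Cldn7, a tight junction protein, of 4.17 and 0.503 RPKM (1.97, p = 0.0226). The exception was Cdh1, the gene of E-cadherin, with medians of 6.56 and 7.45 RPKM and a log2 fold change of -0.29 (95% interval -1.50 to 0.91, p = 0.629). Insulin against vehicle tumors had log2 fold changes of -2.83 (p = 0.0027) for Krt19 and -2.37 (p = 0.0066) for Cldn7, and glargine against vehicle tumors of -0.83 (p = 0.36) and -0.40 (p = 0.63). For Csn1s1 the larger difference from vehicle was that of the glargine group. Luminal mammary genes were positive in 10 of 13, with a median of 0.94 and 3 p-values under 0.05 (5 without insulin 13), and their summed level was between 245 and 920.4 RPKM in glargine and between 150.2 and 626 RPKM in insulin tumors. Basal and myoepithelial genes were positive in 7 of 12, with a median of 0.13 (-0.039 to 0.21 when 1 tumor was left out).

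Vim, the gene of the intermediate filament vimentin, had 9 of 10 glargine tumors outside the insulin range. It ranged from 2683 to 6102 RPKM in glargine tumors (median 4676) and from 2267 to 3642 RPKM in insulin tumors (median 3355). In 9 of 10 glargine tumors it was above every insulin tumor, with a log2 fold change of 0.51 ± 0.21 (SE, p = 0.0196). The lowest of the 9, glargine 64 at 3642.8 RPKM, was nearly level with insulin 15 at 3641.8 RPKM. Of the 22 mesenchymal genes and EMT factors tested, 14 were positive, with a median of 0.24 (0.14 without insulin 37), and Vim was the one gene with a p-value under 0.05. Collagens and matrix genes were positive in 17 of 27 (median 0.03) and fibroblast markers in 6 of 11 (median 0.04). Leaving out 1 tumor moved these medians between -0.045 and 0.14 and between -0.15 and 0.12.

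Adipocyte genes had a positive log2 fold change in 14 of 14, with a median of 0.96 and 7 p-values under 0.05. Adipoq, the gene of the fat cell hormone adiponectin, had a median of 10.5 RPKM in glargine tumors (0.066 to 35.7) and of 0.655 RPKM in insulin tumors (0.142 to 16.5). Only 3 glargine tumors were above every insulin tumor and 1 was below all of them (log2 fold change 1.8 ± 0.81, p = 0.0317). For Fabp4, a fatty acid carrier that endothelium also makes, 6 glargine tumors exceeded every insulin tumor (log2 fold change 1.09, p = 0.0292). For Pparg, the master regulator of fat cell differentiation, this was so for 5 (0.72, p = 0.00572), and for Cidec, a lipid droplet protein, for 4 (1.62, p = 0.0246). The summed level of the list was between 70.2 and 967 RPKM in glargine tumors and between 57.7 and 329 RPKM in insulin tumors, and 5 glargine tumors exceeded every insulin tumor. In bulk tissue more cells of a type and more RNA per cell cannot be told apart. Of the tumors that led in milk genes, glargine 47, 53, 64 and 78 held 334, 306, 781 and 394 RPKM of adipocyte genes. Glargine 67 and 70, with 576 and 967 RPKM of adipocyte genes, exceeded every insulin tumor in 0 and 1 of the 8 milk genes, and glargine 73 had the lowest sum of the glargine group in both lists. The part of fat tissue in the milk gene result was not tested.

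Of 20 genes of fatty acid and triglyceride synthesis, 14 were positive, with a median of 0.11, or 0.056 without insulin 13. Thrsp, a lipogenic regulator of fat and lactating mammary tissue, had the smallest p-value, with medians of 1.62 and 0.301 RPKM and 5 glargine tumors above every insulin tumor (log2 fold change 1.53, p = 0.00691). Scd1, which desaturates fatty acids, was at 0.72 (p = 0.0817). With salivary, muscle and adipocyte scores as covariates, Thrsp was at 0.81 and Scd1 at 0.19. Cholesterol genes were positive in 11 of 19 (median 0.09, and -0.031 to 0.20 when 1 tumor was left out), with Sqle, an early enzyme of sterol synthesis, at 0.50 (p = 0.0712).

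**Figure D2:**
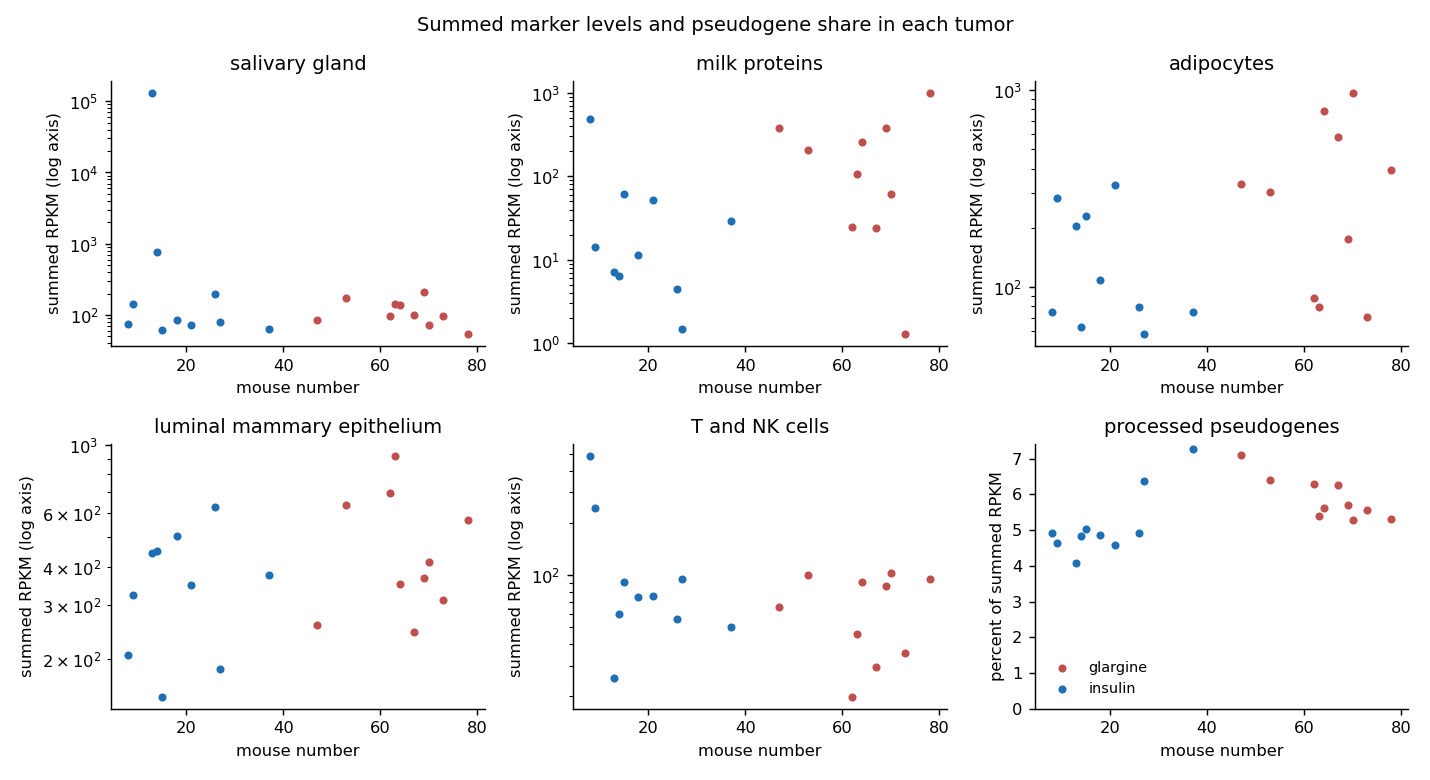
Summed RPKM of 5 marker lists (log axes) and the share of processed pseudogenes in the summed RPKM (percent), against mouse number, for the 10 glargine and 10 insulin tumors. Insulin 13 is the far point of the salivary panel, at 17.3% of its summed RPKM, and the pseudogene share is between 4.08% and 7.26% in insulin tumors and between 5.28% and 7.11% in glargine tumors.

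For the receptors that insulin and glargine bind, the 95% intervals of the difference lay within 2-fold either way. Insr, the insulin receptor gene, was between 5.18 and 11.6 RPKM in glargine tumors (median 8.58) and between 7.24 and 12.3 RPKM in insulin tumors (median 9.99). The groups overlapped, with a log2 fold change of -0.16 ± 0.16 (SE, 95% interval -0.48 to 0.15, p = 0.309). Igf1r, the gene of the IGF1 receptor, had medians of 5.40 and 6.67 RPKM and ranges of 3.31 to 12.1 and 4.81 to 11.0. Its log2 fold change was -0.23 ± 0.20 (SE, 95% interval -0.64 to 0.18, p = 0.263). Igf2r, which clears IGF2 and carries lysosomal enzymes, was the highest of the 3 per gene length, with medians of 281 and 217 RPKM (log2 fold change 0.26, p = 0.22).

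The ligand genes varied more. Igf1 had medians of 59.3 and 47.4 RPKM, and 4 glargine tumors were above every insulin tumor and 1 below (log2 fold change 0.41, 95% interval -0.32 to 1.14, p = 0.265). Igf2, an imprinted fetal growth factor, ranged from 0.866 to 3228 RPKM in glargine tumors and from 0.459 to 1449 RPKM in insulin tumors, so the interval of its log2 fold change (2.46) ran from -0.68 to 5.60. When 1 tumor was left out, the log2 fold change of Igf2 ran from 1.72 to 3.35. Ins1, Ins2 and Insrr did not reach the level for testing. Of 10 tested IGF binding proteins and their proteases, 8 were positive, with a median of 0.21 (0.20 to 0.34 when 1 tumor was left out). Igfbp5, a binding protein of the involuting mammary gland, had medians of 48.1 and 20.8 RPKM, with 940.4 RPKM as the highest glargine and 52.7 RPKM as the highest insulin value (log2 fold change 1.39, p = 0.048). Without insulin 13 its p-value was 0.053, and without glargine 63 the log2 fold change was 0.94 (p = 0.157).

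**Figure D3:**
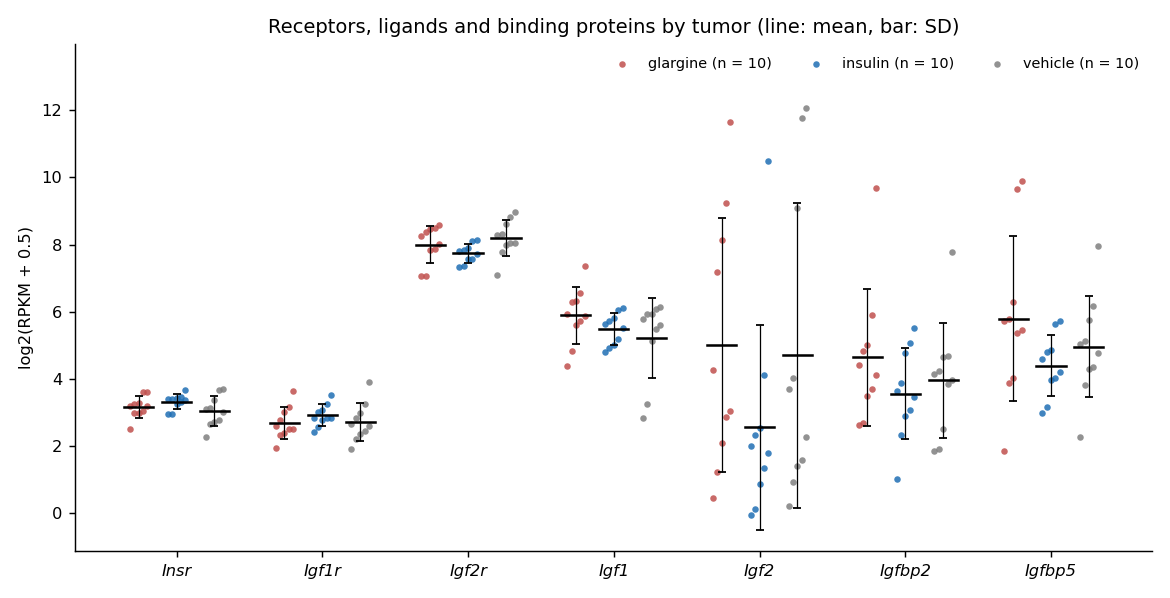
Level of receptor, ligand and IGF binding protein genes in each glargine, insulin and vehicle tumor (10 each), on the log2(RPKM + 0.5) scale; the line is the group mean and the bar the SD. Insr and Igf1r occupy a narrow band in all groups, while Igf2 runs from 0.459 to 3228 RPKM over the glargine and insulin tumors.

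Adaptors and inhibitors next to the receptors were mostly on the negative side, with 16 of 22 below 0 and a median of -0.13. Of the 22, 3 had p-values under 0.05 (5 without insulin 13). Among all tested genes 48.3% were above 0 and 3.96% had p-values under 0.05 (6.35% without insulin 13). Gab2, a docking protein for PI3K and SHP2, was between 3.13 and 5.52 RPKM in glargine tumors (median 4.23) and between 3.38 and 7.44 RPKM in insulin tumors (median 5.56). All 10 glargine tumors were below the insulin median (log2 fold change -0.34 ± 0.13, p = 0.0126). Ptpn1, the phosphatase that dephosphorylates the insulin receptor, had medians of 195.4 and 218 RPKM (-0.23, p = 0.0247). Cish, a feedback inhibitor that STAT5 induces, had medians of 4.17 and 7.73 RPKM, with 9 glargine tumors below the insulin median (-0.71, p = 0.0298). The sign for Cish was opposite to that of Prlr and the caseins, and STAT5 activity was not tested.

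In the PI3K, AKT and mTOR list 24 of 38 genes were negative, with a median of -0.07 (-0.12 to -0.035 when 1 tumor was left out) and 2 p-values under 0.05 (6 without insulin 13). Over all tested genes 48.3% were positive, and 3.96% had p-values under 0.05 (6.35% without insulin 13). The 2 of the list were Pik3cd, the catalytic subunit of leukocytes (-0.50, p = 0.0359), and Pik3r2, a regulatory subunit (-0.31, p = 0.0431). For 37 of the 38 genes the 95% interval was within 2-fold either way, and for 26 within 1.5-fold. RAS, RAF and ERK genes were split 14 to 14 with a median of 0.00 (-0.036 to 0.025 when 1 tumor was left out). Map3k1, a kinase upstream of JNK and ERK that is often mutated in breast cancer, was the one gene of that list with a p-value under 0.05, with medians of 52.3 and 60.8 RPKM (-0.57, p = 0.0225; without insulin 13, -0.48 and p = 0.056).

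Immediate early genes, which growth factors induce within minutes to hours, were positive in 11 of 26, with a median of -0.02 (-0.047 to 0.0019 when 1 tumor was left out). Fos was between 20.6 and 127 RPKM in glargine tumors (median 40.5) and between 14.6 and 46.5 RPKM in insulin tumors (median 21.5). In 5 glargine tumors it was above every insulin tumor, with a log2 fold change of 0.87 ± 0.32 (SE, p = 0.00967). For Fosb, its close relative, 5 glargine tumors were above every insulin tumor and 5 were below the insulin median (0.54, p = 0.0331). Without glargine 53, the tumor with the highest level, the log2 fold change of Fosb was 0.33 (p = 0.138).

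Of 66 nuclear respiratory chain genes, 63 had a positive log2 fold change, with a median of 0.19 and 17 p-values under 0.05, all 17 on the positive side. For 65 of the 66 the 95% interval was within 2-fold either way. Ndufc2, a complex I subunit, was between 61.9 and 98.3 RPKM in glargine tumors (median 78.4) and between 52.2 and 73 RPKM in insulin tumors (median 61.7). In 8 glargine tumors it was above every insulin tumor, with a log2 fold change of 0.33 ± 0.11 (SE, p = 0.00259). The complex I subunits Ndufb9 (0.36, p = 0.00837) and Ndufb4 (0.35, p = 0.0103) and the electron carrier Cycs (0.50, p = 0.01) had like values. Against vehicle the median of the list was 0.02 in glargine tumors and -0.19 in insulin tumors.

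The 25 genes of the tricarboxylic acid cycle were positive in 23, with a median of 0.20, and the smallest p-values were those of Mdh1 (0.42, p = 0.0171), a malate dehydrogenase, and Idh2 (0.28, p = 0.0413), an isocitrate dehydrogenase. Fatty acid oxidation genes were positive in 16 of 19 (median 0.15), with Echs1, an enoyl-CoA hydratase, at 0.28 (p = 0.0125). The 13 genes encoded by the mitochondrial genome were positive in 11 (median 0.15, or 0.059 without glargine 64), and mt-Co2 was at 0.29 (p = 0.0389). Glycolysis and lactate genes were positive in 19 of 26 with a median of 0.09 (0.050 to 0.17 when 1 tumor was left out). Among these, Aldoc, an aldolase, had medians of 24.7 and 14.3 RPKM with 4 glargine tumors above every insulin tumor (0.76, p = 0.0291), Aldoa was at 0.30 (p = 0.143) and Slc2a4, the insulin-responsive glucose transporter of fat and muscle, at 0.85 (p = 0.109), or 0.50 without glargine 64. Hypoxia targets were positive in 15 of 20 (median 0.11, and 0.079 to 0.22 when 1 tumor was left out), with Car9 at 0.50 (p = 0.152).

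Cytosolic ribosomal protein genes were positive in 67 of 79, with a median of 0.12 (0.038 without glargine 47), and Rpl30 was at 0.29 (p = 0.0213). The share of processed pseudogenes in the summed RPKM, many of which resemble ribosomal protein genes, was 5.90% ± 0.596 in glargine and 5.15% ± 0.941 in insulin tumors (SD, n = 10 and 10), a difference of 0.746 percentage points (permutation test, two-sided, p = 0.0498, adjusted over 3 measures 0.149). Without insulin 13, which had the lowest share, the difference was 0.626 percentage points (permutation test, p = 0.0909, adjusted 0.273). The highest shares were in insulin 27 and 37 and in glargine 47 and 53, whose mouse numbers lie next to each other. With this share as a covariate the ribosomal median was -0.01, while it was 0.16 for the nuclear respiratory chain, 0.18 for the tricarboxylic acid cycle and 2.09 for milk genes. For MHC presentation the median was then -0.24 (-0.45 without the covariate), for macrophage genes -0.098 (-0.26) and for glycolysis and lactate genes 0.036 (0.09).

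**Figure D4:**
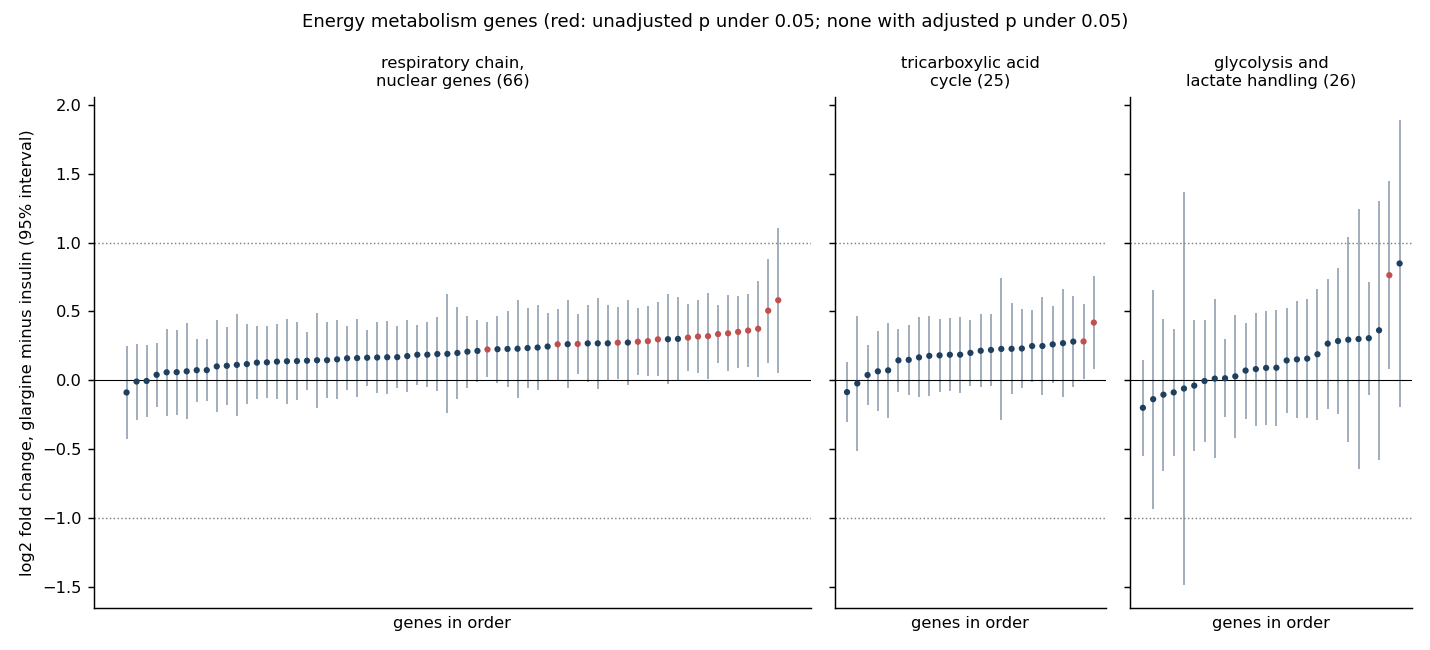
Log2 fold change of glargine against insulin tumors for each nuclear respiratory chain, tricarboxylic acid cycle and glycolysis gene, in order, with 95% intervals; dotted lines mark 2-fold either way and red points an unadjusted p-value under 0.05. Of the respiratory chain genes 63 of 66 lie above 0, none by more than 0.58, and none passed adjustment.

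DNA replication genes were positive in 12 of 22 (median 0.01, and -0.052 to 0.056 when 1 tumor was left out) and mitosis genes in 15 of 20 (median 0.12, and 0.073 to 0.18 when 1 tumor was left out), with every interval of both lists within 2-fold either way. Targets of p53 were positive in 5 of 17 (median -0.12, and -0.16 to -0.039 when 1 tumor was left out). Serine, one-carbon and ATF4 stress genes were positive in 10 of 22 (median -0.00, and -0.079 to 0.0095 when 1 tumor was left out).

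Genes of MHC presentation were negative in 15 of 16, with a median of -0.45 (-0.61 to -0.28 when 1 tumor was left out) and 0 p-values under 0.05 (3 without insulin 13). H2-DMa, which loads peptides onto MHC class II, had medians of 29.3 and 81.3 RPKM, with 9 glargine tumors below the insulin median (-0.85, 95% interval -1.88 to 0.18, p = 0.105). Ciita, the master regulator of class II genes, had medians of 1.97 and 7.42 RPKM (-0.83, p = 0.0895). Without insulin 13, in which both were at the low end, the p-values were 0.023 and 0.022. T and NK cell genes were negative in 17 of 18 (median -0.53), with Klrb1c, an NK cell receptor, at -0.66 (p = 0.0595), and macrophage genes in 11 of 15 (median -0.26). The T and NK cell median was -0.70 without insulin 13 and -0.25 without insulin 8, and the macrophage median was -0.41 without insulin 13 and -0.12 without glargine 47. Without insulin 13, 3 T and NK cell and 2 macrophage genes had p-values under 0.05, against 0 with all tumors. Over all tested genes this share also rose, from 3.96% to 6.35%, and on the lower side from 1.86% to 4.05%. B and plasma cell genes were negative in 12 of 12 (median -0.46), with Fcrla, a B cell protein, at -0.95 (p = 0.0331), but without insulin 8, which held 7673 RPKM of these genes, the median was 0.04. Interferon-stimulated genes were positive in 18 of 21 (median 0.25), but without glargine 78, the tumor with the highest sum, the median was -0.08.

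**Figure D5:**
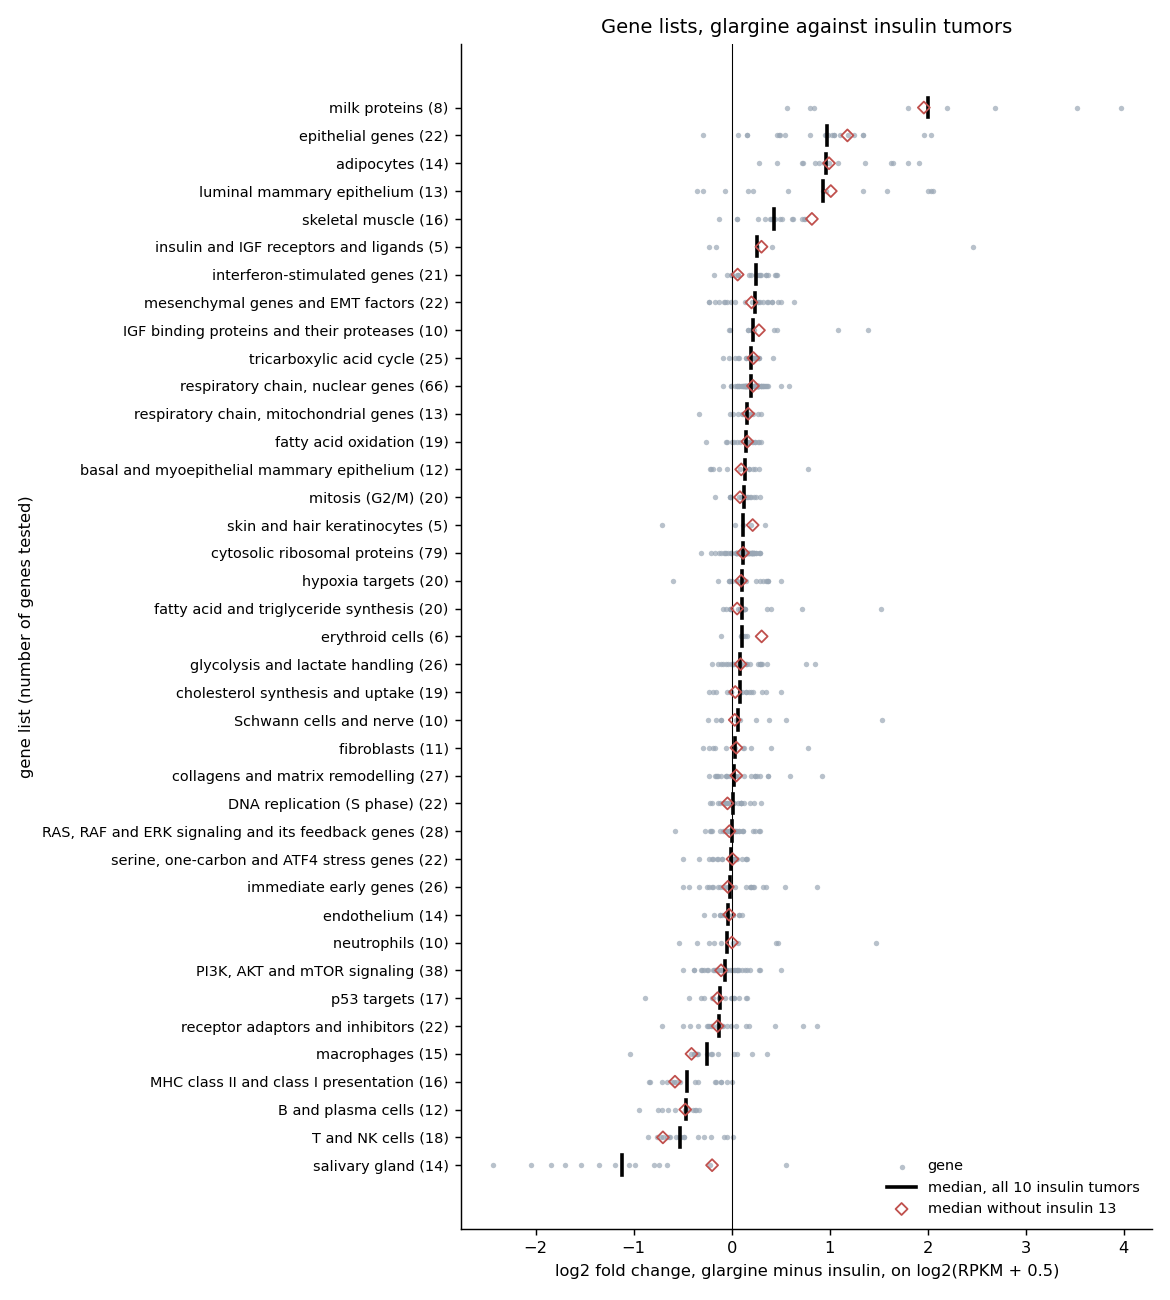
Log2 fold change of glargine against insulin tumors for each gene of 39 lists (points), with the list median over all 10 insulin tumors (bar) and without insulin 13 (diamond). Milk genes lie highest, with a median of 2.00, and the salivary list lowest, with -1.12, or -0.20 without insulin 13.

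Among single genes outside these lists, the lower side of the ranking was led by Nol6, a nucleolar protein of ribosome assembly. It was between 48.9 and 75.9 RPKM in glargine tumors (median 64) and between 69.1 and 106 RPKM in insulin tumors (median 85.3). In 8 glargine tumors it was below every insulin tumor, with a log2 fold change of -0.39 ± 0.11 (SE, p = 0.000844). Mbd1, a protein that binds methylated DNA (-0.58, p = 0.00105), and Angel1, a relative of CCR4 deadenylases (-0.45, p = 0.00105), were also below every insulin tumor in 8 glargine tumors. For Mbd1, glargine 70 was above every insulin tumor, at 28.0 RPKM against at most 27.3 RPKM. Pag1, a membrane adaptor for the kinase CSK (-0.78, p = 0.00163), and Map2k7, a kinase that activates JNK (-0.33, p = 0.00206), were also on the lower side. Prrc2a, a large proline-rich protein (-0.29, p = 0.00293), and Myo9b, a myosin (-0.34, p = 0.00345), were below the insulin median in all 10 glargine tumors. Scamp3, a membrane protein of secretory carriers (-0.39, p = 0.00321), and Dnajb12, a co-chaperone of the endoplasmic reticulum (-0.31, p = 0.00379), were below every insulin tumor in 7 and 6 glargine tumors. The mitochondrial tRNA gene mt-Tk (-0.89, p = 0.00221) was at 1.85 RPKM or less in all 20 tumors. On the higher side, outside the milk and epithelial genes, were Rasd1, a glucocorticoid-induced RAS-like protein (1.20, p = 0.00133), Alkbh3, an alkylation repair enzyme (0.40, p = 0.0022), and the processed pseudogene Gm13772 (0.72, p = 0.0012), which can share reads with its parent gene. The miRNA gene Gm24276 (0.51, p = 0.0016) and the protein-coding gene Gm561 (0.52, p = 0.00166) were above every insulin tumor in 7 and 6 glargine tumors.

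Without insulin 13 the count of called genes was again 0 (0%), with 1062 genes at an unadjusted p-value under 0.05 (6.35%), 385 higher (2.3%) and 677 lower (4.05%). Without insulin 13 and 14 there were 0 called genes (0%) and 1013 at an unadjusted p-value under 0.05 (6.05%). The 14 tested salivary genes had a median of -1.12 with all tumors, -0.20 without insulin 13 and 0.12 without insulin 13 and 14. Bpifa2 went from -2.44 to -0.84 without insulin 13, and to 0.21 when insulin 14 was left out too. In 2 genes (0.012%) the 10 glargine tumors then lay on one side of the 9 insulin tumors. These genes, singled out after their values were seen, were Sec24b, a coat protein of transport vesicles that leave the endoplasmic reticulum, and Nacc1, a transcriptional regulator. Sec24b was at 78.7 to 109 RPKM in glargine tumors and at 112 to 161.9 RPKM in the 9 insulin tumors, with 74.1 RPKM in insulin 13 (log2 fold change without insulin 13 -0.42, adjusted p = 0.712). Nacc1 was at 23.5 to 38.3 RPKM against 40.4 to 48.9 RPKM, with 27.8 RPKM in insulin 13 (-0.38, adjusted p = 0.719). The skeletal muscle list was positive in 15 of 16 (median 0.43), with 9444 RPKM in glargine 64, and its median was -0.22 without that tumor.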

How the data were processed

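RNA of 50 tumors was Poly-A selected and sequenced by the authors (Ion Proton), aligned to GRCm38 with TopHat2 2.0.10 and Bowtie2, counted per gene with HTSeq 0.6.1 and deposited as RPKM values (counts normalized for library size and gene length, with no log transformation). Tumors were grouped by their titles. From the deposited RPKM values, log2(RPKM + 0.5) was computed for 16733 of 37701 genes, those that averaged 0.5 RPKM or more over all tumors. Limma 3.58.1 in R 4.3.3 was fitted over 5 groups of 10 tumors with an intensity trend, and the Benjamini-Hochberg adjustment covered all tested genes. Single measures were tested with 100000 permutations. Library sizes were recovered from the steps between the values of a gene. The scripts were checked on simulated data. The 20 tumors, the 39 gene lists and the tests were chosen with earlier results of these data known. Genes named are up to 10 per direction with the smallest p-value, over all and over protein-coding genes, the receptor and ligand genes, and up to 4 per list by p-value or mean level; an item that this rule names is not reported here. Gene types are from GENCODE M21. Alternatives are described in the closing section. Nothing shows that tumors of a group came from separate litters, and p-values measure the spread between these mice.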

Additional observations from a re-analysis of the deposited data

Results flagged for a closer look

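For 76 named genes and 3 library measures, the 10 tumors of each group were searched for a tumor far from the other 9 (by its gap to the nearest tumor relative to the whole range); 20 such sets were found, and chance alone gives about 1 in 20 sets. Insulin 13 was the far tumor in 8 sets. It had the highest level of the salivary genes Smr3a (16577 RPKM), Amy1 (16196 RPKM), Cst10 (4096 RPKM) and Dcpp1 (3931 RPKM), and of Elf5 (27.9 RPKM), Cldn7 (9.95 RPKM) and Sox10 (9.72 RPKM), a factor of nerve sheath and gland epithelium. It also had the lowest level of the myosin gene Myo9b (22.6 RPKM). Milk genes gave far tumors in both groups: Wap was at 23.5 RPKM in glargine 78 and at 1.12 RPKM in insulin 14, and Glycam1 at 480.1 RPKM in insulin 8. Among growth factor genes, Igf2 was at 1449 RPKM in insulin 21 and Igfbp2 at 821 RPKM in glargine 69. In signaling genes, Map2k7 was at 44.0 RPKM in glargine 63, Fosb at 6.59 RPKM in glargine 53, and Pik3r2 at its lowest, 98.0 RPKM, in glargine 64. Cycs was lowest in glargine 70, at 10.0 RPKM. Cst10 was at 0.178 RPKM in glargine 47, which is the highest of a set close to 0. The library of insulin 8 had the most reads of its group, 51.9 M, and glargine 64 the highest share of mitochondrial genes, 5.50% of summed RPKM.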

How the results depend on the processing

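No gene was called in any of 35 alternatives, with adjusted p-values down to 0.155 (array quality weights), and 69 of 76 named genes kept their sign in all of them. The number of genes at an unadjusted p-value under 0.05 was 1536 with all genes with a nonzero value, 433 with genes averaging 5 RPKM or more, 1917 with array quality weights, 1319 with only glargine and insulin tumors in the fit, 1611 with salivary, muscle and adipocyte scores as covariates, and from 490 to 1062 when 1 tumor was left out, the latter without insulin 13. It was 1013 without insulin 13 and 14, a setting added after seeing the data, as was limma voom; the cause was not tested. With the covariate scores, Glycam1 (-0.074), Cidec (-0.12) and Adipoq (-0.21) turned negative, and the MHC median was -0.998. Of the other named adipocyte genes, Fabp4 was then at 0.12, Pparg at 0.29 and Slc2a4 at 0.21. Adipocyte genes are part of those scores. Without insulin 13 and 14, Bpifa2 (0.21), Smr3a (0.21), Amy1 (0.46) and Dcpp1 (0.14) turned positive. The salivary median was -0.55 with array weights, -0.068 with the scores, -1.27 to -0.20 when 1 tumor was left out and 0.12 without insulin 13 and 14. List medians kept their sign in all settings for 20 of 39 lists. The number of genes with no overlap was 0, and 2 without insulin 13. No paired analysis was possible because the groups share no mouse number. Csn1s1, near 0 RPKM in many insulin tumors, was at 4.76 with a pseudocount of 0.1, at 3.53 with 1 and at 5.30 with limma voom. With 1 tumor left out, the unadjusted p-value was 0.05 or more at least once for Wap, Krt19, Cldn7, Adipoq, Fabp4, Cidec, Fosb, Igfbp5, Ptpn1, Cish, Pik3cd, Pik3r2, Map3k1, Idh2, mt-Co2, Aldoc, Rpl30, Fcrla, Sox10, Bpifa2, Smr3a, Cst10 and Dcpp1, all under 0.05 with all tumors.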

Other observations

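Of the other cell types that a piece of tumor can hold, endothelial genes were positive in 5 of 14 (median -0.04, and -0.11 to 0.0089 when 1 tumor was left out), and for 11 of them the 95% interval lay within 1.5-fold either way. Schwann cell and nerve genes were positive in 6 of 10 (median 0.07, and -0.031 to 0.20 when 1 tumor was left out), with Sox10 at 1.54 (p = 0.0161) and highest among insulin tumors in insulin 13. Neutrophil genes were positive in 5 of 10 (median -0.05, and -0.20 to 0.12 when 1 tumor was left out). Erythroid genes were positive in 5 of 6, with a median of 0.10 that was 0.31 without insulin 13 and ran from -0.046 to 0.40 when 1 tumor was left out. The 5 tested genes of skin and hair were positive in 4, with a median of 0.12, or 0.21 without insulin 13 and 0.046 without glargine 63. The exception was Tchh at -0.71, the one gene of this list with a p-value under 0.05.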
